A study of Mus musculus with 14 samples.

Results

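The 10 genes described here mark or drive the early steps of T cell development in the thymus: Notch1, Notch3, Dtx1 and Hes1 belong to the Notch pathway, Ptcra encodes a part of the pre-T cell receptor, and Il2ra, Il7r, Kit, Cd44 and Hhex are genes of immature thymocytes. They were followed in the mouse thymus during treatment with 17β-estradiol, the main ovarian estrogen, or with genistein, an isoflavone of soy that binds estrogen receptors. Every probe set annotated to one of these genes alone was taken, which gave 16 of the 22690 probe sets on the array, and none of the 16 was shared with another gene. Of these, 14 were bright enough to be tested, and each of the 10 genes had at least 1 among them.

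The mice were female and of the inbred strain C57BL/6. All of them, controls included, lost their ovaries at 26 days of age and were put on a diet free of phytoestrogens, with treatment from 30 days. Thymus RNA was taken on day 2, 3 or 6 from mice injected daily with 125 ng of 17β-estradiol in 0.02 ml of corn oil, on the same days from mice fed 1500 ppm of genistein, and on day 0 from untreated controls. These 7 groups had 2 Affymetrix arrays each, and every array held RNA pooled from 3 mice, so a p-value speaks of the spread between pools. Controls of days 2, 3 and 6 were not analysed here, and only the estradiol mice are labelled as having received oil and injections. In the comparisons with control the agent, the injections and the passing of days therefore cannot be told apart. Between estradiol and genistein, the agent cannot be told apart from daily injection in oil against feeding.

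Notch receptors are cut on binding their ligands, and the freed intracellular part enters the nucleus, where it joins the DNA-binding protein RBPJ and switches target genes on. In the thymus, ligands on the epithelium signal through Notch1 on incoming progenitors and commit them to the T lineage. Progenitors with Kit and Cd44 on their surface gain Il2ra, known as CD25, then lose Kit and Cd44, and pass the pre-T cell receptor checkpoint, after which Il2ra is shut off and cells go on to carry both CD4 and CD8.

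The proximal promoters of Il2ra, the only one of the genes with a probe set that passed the test, and of Ptcra, a known Notch target in mouse thymocytes, are given here as the 250 bases before the gene's start, 5′ to 3′ on the gene's strand, from RefSeq on GRCm38.p6. Il2ra lies on the plus strand at chr2:11642542-11642791 in this window and Ptcra on the minus strand at chr17:46763713-46763962. Capitals mark the RBPJ core TGGGAA, which was searched on both strands.
Il2ra: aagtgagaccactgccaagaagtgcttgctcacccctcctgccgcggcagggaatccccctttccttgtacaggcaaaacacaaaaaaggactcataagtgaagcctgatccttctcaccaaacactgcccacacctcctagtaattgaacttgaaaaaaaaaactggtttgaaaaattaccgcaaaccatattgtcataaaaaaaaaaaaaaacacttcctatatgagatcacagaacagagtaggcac
Ptcra: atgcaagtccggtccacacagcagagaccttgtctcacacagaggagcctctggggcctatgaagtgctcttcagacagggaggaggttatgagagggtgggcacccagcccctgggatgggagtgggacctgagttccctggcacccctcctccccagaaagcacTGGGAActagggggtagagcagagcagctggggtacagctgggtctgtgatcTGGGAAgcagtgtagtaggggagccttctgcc

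The Ptcra window held 2 RBPJ cores, at 84 to 79 and at 32 to 27 bases before the start. The Il2ra window held 0, which says only that these letters are not in these bases. Among 32851 mouse promoter windows, 21.6% held this core at least once. A single arm of the palindromic estrogen response element, AGGTCA, was searched in the same way and stood in 14.0% of all windows but in neither of these.

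Signals are in the arbitrary units of the array, after each array had been rescaled to one common mean, because 3 of the 14 arrays (estradiol day 2 replicate 2 and both of estradiol day 3) had been deposited at a higher scale than the other 11. Changes are on the scale of log2(signal + 16), where a change of 1 is a doubling of signal + 16, so that the fold change of dim probe sets is understated. An adjusted p under 0.05 from limma over all 13575 probe sets tested was taken as a call. Thymocyte genes stood high on all arrays: the summed signal of 9 genes of double-positive thymocytes was 12814.6 to 15577.9 on the estradiol arrays, 14087.4 to 16481.3 on the genistein arrays and 14217.1 to 14665.1 on the controls. In whole-thymus RNA, more cells of a type and more RNA per cell cannot be told apart.

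Il2ra, the α chain of the interleukin 2 receptor and the marker of the stage just before the pre-T cell receptor checkpoint, was higher in estradiol-treated thymus than in either other condition by its dimmer probe set. This read 98.0 and 87.8 on day 2 of estradiol, 93.5 and 116 on day 3 and 118 and 154 on day 6. It read 45.6 and 49.6 on day 2 of genistein, 40.5 and 46.7 on day 3 and 47.0 and 69.4 on day 6. The controls read 36.1 and 27.0. All 6 estradiol arrays thus lay above all 6 genistein arrays, and all of these above both controls.

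Over the mean of the 3 days, this probe set rose by a log2 change of 1.41 ± 0.170 SE in estradiol against control (limma, adjusted p = 0.00355) and by 0.94 ± 0.120 SE in estradiol against genistein (limma, adjusted p = 0.00176). Of all probe sets tested, 0.604% were called in the comparison with control and 1.41% in that with genistein. In genistein against control the change was 0.46 ± 0.170 SE and was not called (limma, adjusted p = 0.363), where 0.0368% of all probe sets were called. The control signals lay below 44.5, the lowest mean signal of any probe set tested, and the size of the change therefore depends on the pseudocount: against control it was 1.77 with a pseudocount of 1 and 0.87 with 64, called in each case. Without control replicate 2, the lower of the controls, the change was 1.27 and no longer called (adjusted p = 0.0971).

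By day, the group means of the dimmer probe set ran from 136 ± 25.8 (SD, n = 2) on day 6 of estradiol through 105 ± 15.9 on day 3 and 92.9 ± 7.18 on day 2 to 58.2 ± 15.8 on day 6 of genistein, 47.6 ± 2.83 on day 2 and 43.6 ± 4.39 on day 3, with 31.6 ± 6.44 in controls. Arrays of neighbours in this order overlapped between estradiol days 3 and 2 and among the 3 genistein groups, and did not overlap elsewhere. Against control, estradiol at day 6 was called (log2 change 1.67 ± 0.208 SE, limma, adjusted p = 0.00239; 0.656% of all probe sets), as was day 3 (1.35, adjusted p = 0.0321; 0.0663%), while day 2 was not (adjusted p = 0.0541; 0.0884%). The day 3 call held in 5 of 14 cases when 1 array was left out (adjusted p up to 0.534), and the day 6 call was lost without estradiol day 6 replicate 2 (adjusted p = 0.0854).

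At day 6 all arrays compared had been deposited at the common scale, so their signals and changes do not rest on the rescaling. The SE and adjusted p in part do, because the spread was estimated from all 14 arrays. On that day, estradiol exceeded genistein by 1.04 ± 0.208 SE, which was not called (limma, adjusted p = 0.0628). Of all probe sets, 0.265% were called. With the 3 high-scale arrays left out, the change over the mean of days 2 and 6 was 0.94 against genistein (adjusted p = 0.058) and 1.47 against control (adjusted p = 0.0190). Neither the change over the days of estradiol (F test, adjusted p = 0.784) nor the interaction of treatment and day (adjusted p = 1.00) was called for this probe set, and these tests called 0.0221% and 0% of all probe sets. At an unadjusted p under 0.05 the interaction held 1 of the 14 probe sets of the genes described here, beside 4.24% of all. The change over the days of genistein was called for 0% of all probe sets and for 0 of the 14.

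The brighter Il2ra probe set showed the same order of conditions with more overlap. It read 92.1 and 108 on day 2 of estradiol, 112 and 120 on day 3 and 80.4 and 115 on day 6, against 68.7 and 63.4, 56.2 and 79.4, and 39.2 and 94.4 on the same days of genistein and 56.8 and 46.0 in controls. All estradiol arrays lay above both controls, and 1 genistein array, day 6 replicate 2, reached into the estradiol range. The change was 0.83 ± 0.225 SE in estradiol against control (limma, adjusted p = 0.109) and 0.56 ± 0.159 SE against genistein (limma, adjusted p = 0.0943), neither of them called. The 2 probe sets of Il2ra correlated across the 14 arrays (Pearson's r = 0.838), as a description of 2 readings of the same RNA.

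**Figure D1:**
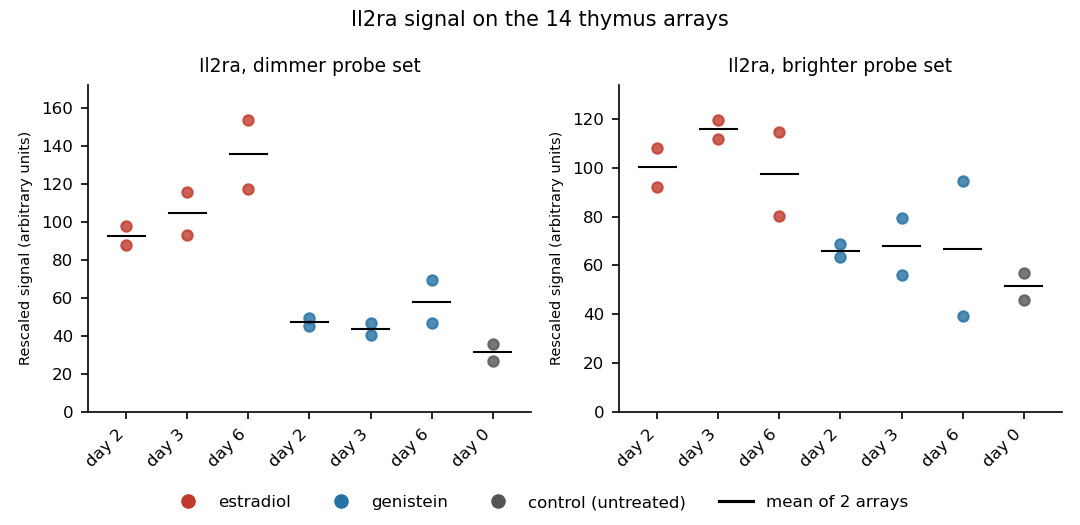
Rescaled signal (arbitrary units, axis from 0) of the 2 probe sets of Il2ra on each of the 14 arrays, with the estradiol groups left, the genistein groups next and the untreated controls right; points are arrays and lines the mean of 2. In the dimmer probe set (left) all estradiol arrays (87.8 to 154) lie above all genistein arrays (40.5 to 69.4) and both controls (27.0 and 36.1), while in the brighter one the higher array of genistein day 6 (94.4) reaches the estradiol range.

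None of the other 12 probe sets was called in any of the comparisons. In estradiol against control over the mean of days, all 14 changes were above 0, from 0.25 for Hhex to 1.41 for Il2ra, with a median of 0.38 beside 0.005 for all 13575 probe sets, of which 50.9% were above 0. The unadjusted p was under 0.05 for 10 of the 14, beside 14.8% of all probe sets. The 14 hold 2 probe sets each of Il2ra, Il7r, Notch1 and Notch3, so they are not 14 separate readings. The genes were also chosen with earlier results of these data known. In genistein against control 13 of 14 changes were above 0 over the mean of days (median 0.282, all probe sets 0.011), with 11, 9 and 12 above 0 on days 2, 3 and 6, and 5 had an unadjusted p under 0.05 over the mean of days, beside 11.1% of all. In estradiol against genistein 11 of 14 were above 0 (median 0.254, all probe sets -0.002), and 7 had such a p, beside 17.1%. At single days limma called 0 of the 14 in genistein against control. Of all probe sets, 0.0147% were called on day 2 and 0.00737% on days 3 and 6. An unadjusted p under 0.05 was held by 1, 2 and 6 of the 14, beside 11.8%, 5.73% and 10.4% of all. In estradiol against genistein limma called 0 of the 14 at days 2 and 3 too, beside 0.081% and 0.0147%. There 1 and 5 had such a p, beside 6.72% and 6.70% of all. Both comparisons with control use the same 2 control arrays, so a low or high control moves all of these values together.

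Counted by array, 8 of the 14 probe sets had all 6 estradiol arrays above both controls, beside 8.04% of all probe sets: both of Il2ra, both of Il7r and those of Dtx1, Kit, Ptcra and 1 of Notch3. All 6 genistein arrays lay above both controls for 3 of the 14, beside 4.49%: those of Cd44, Il2ra and Il7r. Estradiol lay wholly above genistein for 1, Il2ra, beside 0.965%. The opposite order occurred for 0 of the 14 in each comparison, beside 6.96% of all probe sets in estradiol against control, 4.19% in genistein against control and 0.413% in estradiol against genistein.

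**Figure D2:**
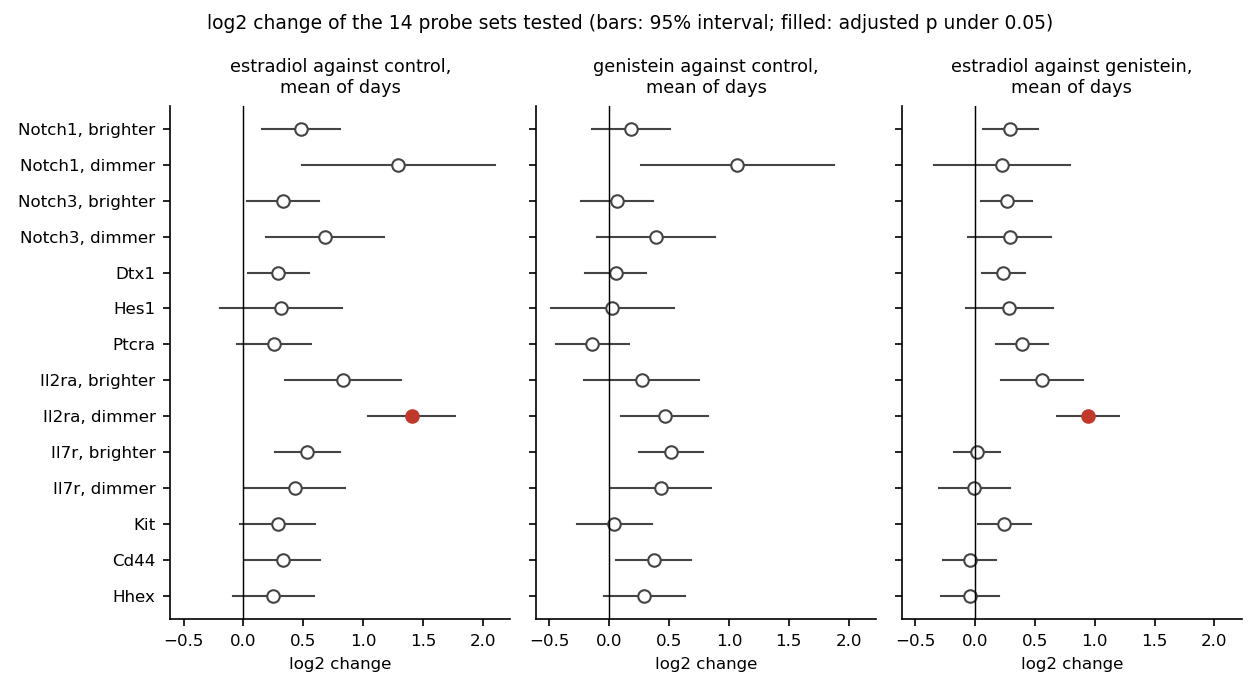
Change on the log2(signal + 16) scale (horizontal axis) of the 14 probe sets tested (rows) over the mean of days 2, 3 and 6 for the 3 comparisons named above the panels; points are limma's estimates, bars their 95% intervals, and filled points have an adjusted p under 0.05. Only the dimmer probe set of Il2ra is filled, at 1.41 in estradiol against control and 0.94 in estradiol against genistein, while all 14 points lie right of 0 in the first panel.

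Among the receptors, Notch1, which commits progenitors to the T lineage, read 468 and 619 on day 2 of estradiol, 571 and 677 on day 3 and 702 and 753 on day 6 in its brighter probe set. It read 557 and 619 on day 2 of genistein, 489 and 393 on day 3 and 555 and 454 on day 6, and 512 and 384 in controls. Both arrays of estradiol days 3 and 6 and of genistein day 2 lay above both controls, with those of estradiol day 6 highest. The change was 0.48 ± 0.152 SE in estradiol against control (limma, adjusted p = 0.164) and 0.30 ± 0.107 SE against genistein (limma, adjusted p = 0.176).

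The dimmer Notch1 probe set turned on the controls, which read 148 and 27.3. The estradiol arrays read 144 to 225 and the genistein arrays 89.3 to 208, so control replicate 2 stood apart from all other 13 arrays. Its change in estradiol against control was 1.29 ± 0.375 SE (limma, adjusted p = 0.130), and 2.25 without control replicate 1 (adjusted p = 0.00372) or 0.33 without control replicate 2.

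Notch3, a receptor that is itself a Notch target and is most active around the pre-T cell receptor checkpoint, read 287 and 400 on day 2 of estradiol, 370 and 351 on day 3 and 459 and 455 on day 6 in its brighter probe set. It read 224 and 304, 333 and 357, and 345 and 351 on these days of genistein, and 300 and 301 in controls. As for Notch1, day 6 of estradiol held the highest arrays. The change at day 6 was 0.58 ± 0.172 SE against control (limma, adjusted p = 0.143), and over the mean of days it was 0.33 ± 0.140 SE (limma, adjusted p = 0.288). The dimmer probe set had all estradiol arrays above the controls, at 78.9 to 165 against 59.3 and 61.3, and correlated weakly with the brighter one (Pearson's r = 0.288 over 14 arrays).

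Dtx1, a Deltex ubiquitin ligase that is a target and modifier of Notch, read 186 and 194 on day 2 of estradiol, 228 and 223 on day 3 and 203 and 224 on day 6. It read 201 and 186, 152 and 181, and 158 and 176 on these days of genistein, and 174 and 162 in controls. All estradiol arrays lay above both controls, and genistein arrays lay on either side of them. The change was 0.29 ± 0.119 SE in estradiol against control (limma, adjusted p = 0.274) and 0.24 ± 0.084 SE against genistein (limma, adjusted p = 0.167).

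Hes1, a transcriptional repressor and a classical Notch target, read 82.8 and 88.7 on day 2 of estradiol, 83.0 and 75.1 on day 3 and 77.3 and 77.1 on day 6. It varied more widely in genistein, with 89.9 and 36.6, 58.9 and 53.5, and 66.5 and 86.4, and in controls, with 44.4 and 83.8. The 6 estradiol arrays lay within the range of the others, and the change against control was 0.31 ± 0.238 SE (limma, adjusted p = 0.565). The direction rested on the controls: the change was -0.05 without control replicate 1 and 0.68 without control replicate 2.

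Ptcra, the invariant α chain that pairs with a new β chain in the pre-T cell receptor, read 285 and 318 on day 2 of estradiol, 320 and 388 on day 3 and 303 and 355 on day 6. It read 238 and 305, 208 and 249, and 266 and 212 on these days of genistein, and 276 and 266 in controls. Estradiol arrays all lay above the controls, while 4 of the 6 genistein arrays lay below both. Over the mean of days it was the only one of the 14 probe sets with a change below 0 in genistein against control (-0.14 ± 0.143 SE, limma, adjusted p = 0.737). Its change was 0.40 ± 0.101 SE in estradiol against genistein (limma, adjusted p = 0.0735) and 0.26 ± 0.143 SE in estradiol against control (limma, adjusted p = 0.429), and it was not called in either.

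Il7r, the α chain of the receptor for interleukin 7, the main survival cytokine of early thymocytes, stood above control in both treatments. In its brighter probe set it read 323 and 268 on day 2 of estradiol, 275 and 287 on day 3 and 260 and 292 on day 6, and 270 and 210, 300 and 304, and 312 and 295 on these days of genistein, against 188 and 193 in controls. All 12 treated arrays lay above both controls, and the treatments overlapped. The change was 0.53 ± 0.126 SE in estradiol against control (limma, adjusted p = 0.0701) and 0.52 ± 0.126 SE in genistein against control (limma, adjusted p = 0.257). Between the treatments it was 0.02, with a 95% interval of -0.17 to 0.21. The dimmer probe set gave 0.43 in each comparison with control, also not called.

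Kit, the receptor of stem cell factor on the earliest progenitors, read 106 and 109 on day 2 of estradiol, 106 and 94.4 on day 3 and 110 and 129 on day 6 in its brighter probe set. It read 95.1 and 90.0, 74.8 and 90.3, and 79.0 and 111 on these days of genistein, and 90.2 and 82.7 in controls. Estradiol arrays lay above both controls, by a change of 0.28 ± 0.145 SE (limma, adjusted p = 0.386). The other probe set was too dim to be tested, at 22.5 to 49.2 on estradiol, 25.9 to 49.6 on genistein and 33.8 and 35.3 on control arrays, and did not follow the first (Pearson's r = -0.071).

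Cd44, an adhesion receptor for hyaluronan on early progenitors and on activated T cells, read 180 and 131 on day 2 of estradiol, 168 and 154 on day 3 and 145 and 172 on day 6 in its brighter probe set. It read 136 and 158, 172 and 177, and 151 and 187 on these days of genistein, and 113 and 132 in controls. Only 1 treated array, estradiol day 2 replicate 2, was as low as a control. The change was 0.33 ± 0.145 SE in estradiol and 0.37 ± 0.145 SE in genistein against control (limma, adjusted p = 0.317 and 0.390). The other probe set was too dim to be tested, at 3.30 to 33.7 on all arrays.

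Hhex, a homeodomain factor of haematopoietic progenitors, read 73.7 and 80.6 on day 2 of estradiol, 70.4 and 66.2 on day 3 and 54.8 and 72.9 on day 6. It read 70.0 and 75.8, 56.1 and 67.7, and 93.0 and 73.5 on these days of genistein, and 64.7 and 47.9 in controls. Both treatments overlapped with the controls, and the changes were 0.25 ± 0.159 SE and 0.29 ± 0.159 SE (limma, adjusted p = 0.492 and 0.509). Without control replicate 2 they were 0.08 and 0.13.

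**Figure D3:**
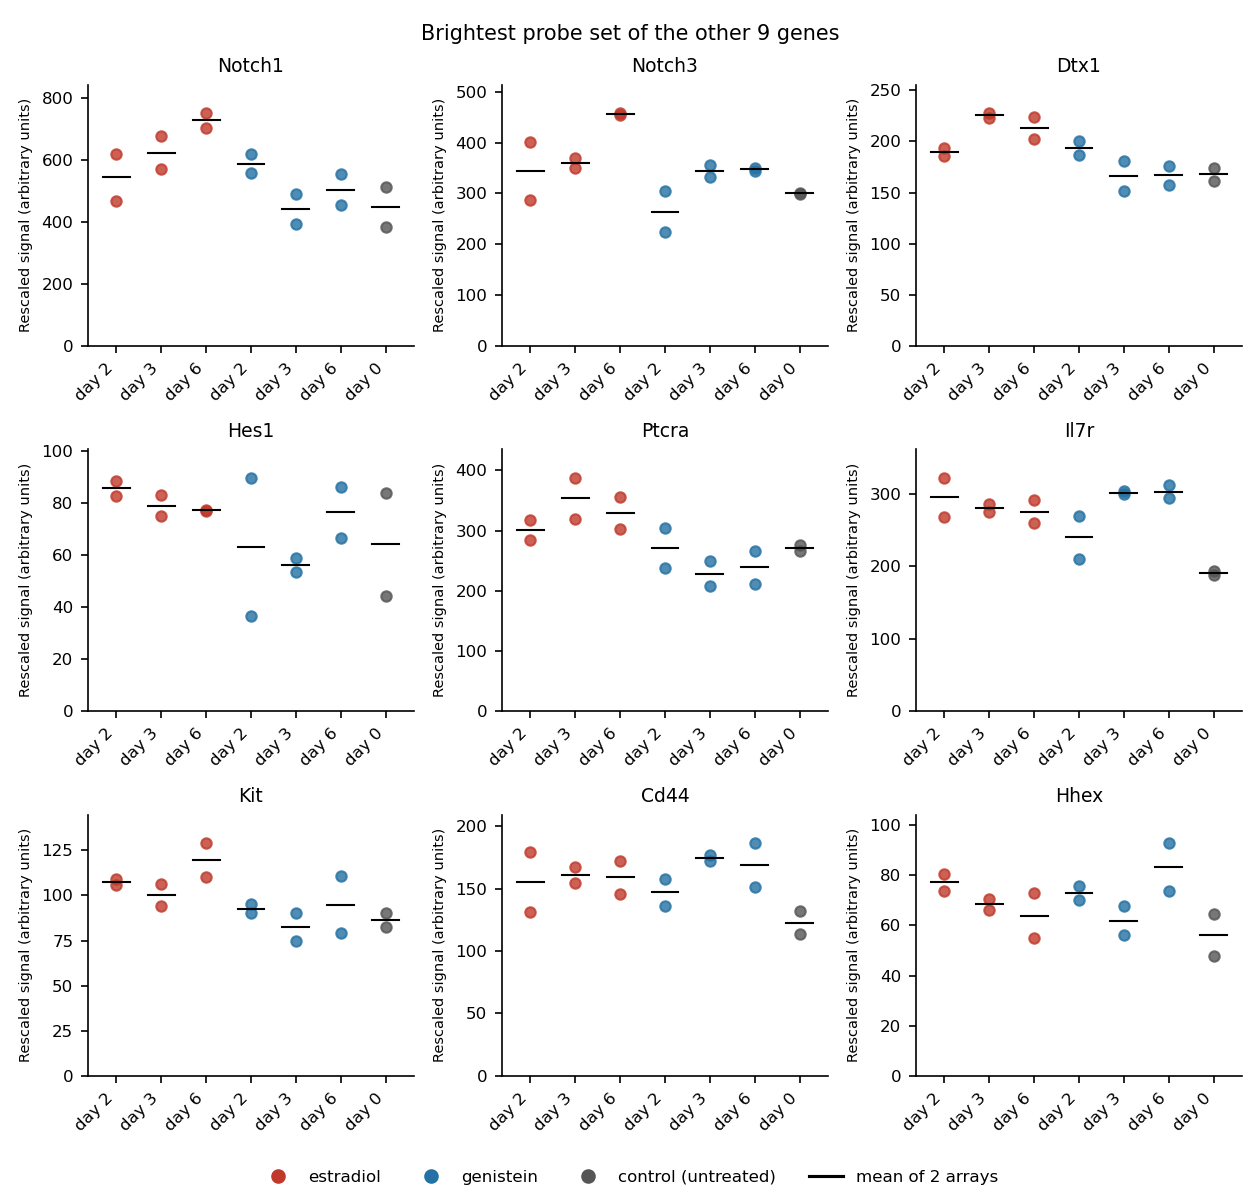
Rescaled signal (arbitrary units, axes from 0) of the brightest probe set of each of the other 9 genes on the 14 arrays; points are arrays, lines the mean of 2, with estradiol left, genistein next and controls right. Il7r stands above its controls (188 and 193) in all 12 treated arrays, and the highest arrays of Notch1 and Notch3 are those of estradiol day 6.

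The 10 genes did not vary as one block. Over the 14 arrays, the 45 pairs of their brightest probe sets had a median Pearson's r of 0.319, from -0.154 to 0.826, and 41 were above 0. The genes whose profile was most like that of the brighter Il2ra probe set were Axl (r = 0.936), Tcf25 (0.930) and Adgrg1 (0.926), and for the dimmer one, looked up after its values were seen, they were Sirpa (0.958), Trgv1 (0.947) and Crip3 (0.942). The nearest to Ptcra were Rps9 (0.900), Nab1 (0.876) and Col3a1 (0.840), and to Notch1 were Pxn (0.934), Kat2a (0.926) and Rere (0.908). These arrays share treatment groups and scaling, and the correlations are descriptions over 14 arrays.

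The rest of the Notch pathway was read from fixed lists. Of 5 ligands, 3 were bright enough to be tested and limma called 0. In estradiol against control 1 of the 3 had an unadjusted p under 0.05, beside 14.8% of all probe sets. Dll1 stood at 0.49 ± 0.168 SE and Jag2 at 0.38 ± 0.194 SE. Of 11 further receptors and modifiers, 9 were tested and 1 was called, Notch2, the receptor best known for B cell and dendritic cell subsets, at day 6 of estradiol against control (0.85 ± 0.169 SE, limma, adjusted p = 0.0391). It read 175 and 173 on the day 6 arrays against 102 and 78.3 in controls, and over the mean of days it stood at 0.64 (adjusted p = 0.0583).

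Of the machinery that cuts Notch, 6 of 9 genes were tested and limma called 0. In estradiol against control 0 of the 6 had an unadjusted p under 0.05, beside 14.8% of all probe sets. Aph1a stood at -0.37 ± 0.213 SE and Adam10 at 0.18 ± 0.118 SE. Of 10 nuclear partners, 6 were tested and limma called 0, with 1 at such a p, beside the same 14.8%. The deacetylase Hdac1 stood at -0.28 ± 0.124 SE and Snw1 at -0.16 ± 0.151 SE. Rbpj itself, looked up after its value was seen, stood at 0.06 ± 0.133 SE. Of 13 targets and Deltex relatives, 7 were tested and 1 called, Hey1, a hairy-related repressor and Notch target. It was higher in estradiol than in genistein (0.43 ± 0.093 SE, limma, adjusted p = 0.0403), at 98.7 to 139 against 64.3 to 111, with controls at 79.2 and 82.1.

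Of 16 partners of interleukin 7 and Kit signalling, 13 were tested and 1 called, Il7, the ligand of Il7r, which thymic epithelium makes. It was higher in estradiol than in genistein over the mean of days (0.53 ± 0.112 SE, limma, adjusted p = 0.0350). Estradiol arrays read 110 and 91.6 on day 2, 134 and 155 on day 3 and 172 and 176 on day 6, against 112 and 90.5, 102 and 79.0, and 74.6 and 82.2 on these days of genistein. The treatments matched on day 2 and lay apart by day 6, on both sides of the controls (99.0 and 146), although limma called the interaction of treatment and day for 0 probe sets.

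Of all probe sets, 0.656% were called in the comparison that called Notch2 and 1.41% in the one that called Hey1 and Il7. Each of these 3 calls was close to the threshold. Leaving out 1 array at a time, Notch2 was called in 6 of 14 cases (adjusted p up to 0.325), Hey1 in 4 of 14 (up to 0.161) and Il7 in 5 of 14 (up to 0.129). Without the 3 high-scale arrays the adjusted p was 0.0801 for Notch2, 0.164 for Hey1 and 0.220 for Il7.

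**Figure D4:**
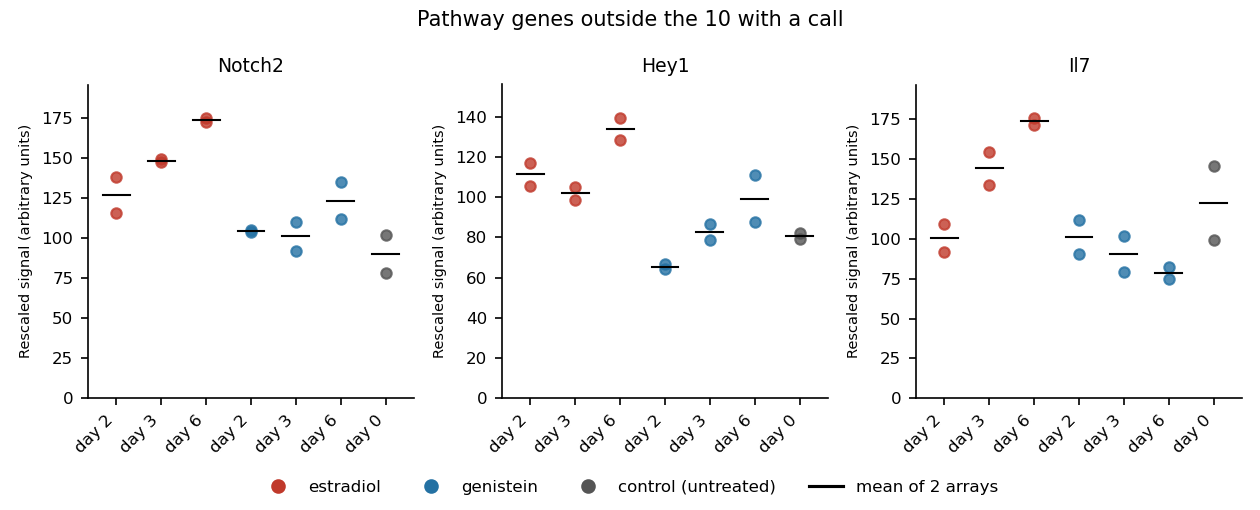
Rescaled signal (arbitrary units, axes from 0) of Notch2, Hey1 and Il7 on the 14 arrays, with estradiol left, genistein next and controls right; points are arrays and lines the mean of 2. Notch2 and Il7 are highest on day 6 of estradiol (175 and 173 for Notch2, 172 and 176 for Il7), and Il7 has its lowest array on day 6 of genistein (74.6).

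Of 26 transcription factors of early T lineage steps, 21 were tested and limma called 0 in any comparison. In estradiol against control 3 of the 21 had an unadjusted p under 0.05, beside 14.8% of all probe sets. The smallest p in estradiol against control belonged to Egr1 (-0.30 ± 0.102 SE) and Id3 (-0.36 ± 0.127 SE), both induced by T cell receptor signals. Of 25 genes of the pre-T cell receptor checkpoint and of immature thymocytes, 23 were tested and limma called 0. Such a p was held by 7 of the 23, beside the same 14.8% of all probe sets. The smallest p belonged to Tfrc, the transferrin receptor of dividing cells (-0.50 ± 0.118 SE, limma, adjusted p = 0.0724), and Mpo, a myeloid and progenitor peroxidase (0.65 ± 0.174 SE, adjusted p = 0.105). The median over the 23 genes was 0.025 in estradiol against control, beside 0.005 over all probe sets.

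Markers of several other cells of the thymus were called in the comparisons that called Il2ra. Over the mean of days, 0.604% of all probe sets were called in estradiol against control and 1.41% in estradiol against genistein. Of 7 γδ and innate-like T cell genes on the array, 6 were tested and 2 were higher in both comparisons. Trgv1, a variable segment of the γ chain, stood at 1.36 and 1.16 (limma, adjusted p = 0.00524 and 0.000845), and Cd7, a surface protein of T and natural killer cells, at 2.11 and 1.35 (adjusted p = 0.0203 and 0.0233). The Cd7 controls read 5.7 and 14.5, below the lowest mean signal of any probe set tested (44.5), so the size of its change depends on the pseudocount. Its genistein arrays (5.9 to 101.3) overlapped its estradiol arrays (32.6 to 137.2). The list's summed signal was 1192.2 to 1658.5 in estradiol, 760.8 to 1213.3 in genistein and 737.9 to 752.0 in controls. The sum of 16 macrophage and dendritic cell genes was 5044.0 to 5643.0, 3918.3 to 5072.0 and 4062.1 to 4297.9 in the same order of conditions. Of 13 tested genes, 4 were higher in estradiol against control (Vcam1, Hmox1, Mertk and Csf1r, by 0.55 to 1.16) and the first 3 of these also against genistein. Ctss (-0.28), Lyz2 (-0.09) and Adgre1 (-0.03) were below 0 against control and not called, while the rest of the 13 were above 0. The sum of 13 thymic epithelium genes was 9506.0 to 11639.2, 8840.3 to 9782.8 and 7603.4 to 8081.1, with 4 of 13 higher against control (Ccl25, Prss16, Pax1 and Trp63, by 0.47 to 0.87) and 3 against genistein (Pax1, Trp63 and Ly75, by 0.62 to 0.82). Csf1r and Prss16 were called against control at the threshold (limma, adjusted p = 0.0497 for each). Calls of the cell type markers were not recomputed with arrays left out. Krt8 was called against control at day 6 alone (0.62, adjusted p = 0.0388). The sum of 8 adipocyte genes was 1443.4 to 2372.6, 924.1 to 1432.3 and 1059.6 to 1071.0. Of 5 tested, 2 were higher against control (Lpl at 1.03 and Cebpa at 1.07) and 3 against genistein (these and Fabp4, by 0.60 to 0.83). Against control Fabp4 (0.65), Adipoq (0.25) and Retn (0.36) were not called. Against genistein Adipoq (0.82) and Retn (-0.15) were not called. The sum of 10 fibroblast and endothelium genes was 1559.9 to 1888.1, 1154.6 to 1422.1 and 1173.5 to 1419.2. Here limma called 0 of 8 in estradiol against control over the mean of days. Of the 8, 3 had an unadjusted p under 0.05, beside 14.8% of all probe sets. Kdr was below 0 against control (-0.20) and against genistein (-0.10), while the rest of the 8 were above 0 in both. Against genistein it called 1, the matrix protein Dcn (0.56 ± 0.123 SE, adjusted p = 0.0445), and Plvap, a protein of fenestrated endothelium, was called against genistein at day 6 (0.97, adjusted p = 0.0482) and over the days of estradiol (F test, adjusted p = 0.00968).

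In the other direction, 1 of the 9 genes of double-positive thymocytes was lower in estradiol than in genistein over the mean of days. This was Cd8b1, the β chain of CD8 (-0.28 ± 0.059 SE, limma, adjusted p = 0.0345), at 1667.5 to 2077.1 on the estradiol arrays, 2180.8 to 2371.5 on the genistein arrays and 2014.4 and 2124.8 on the controls, so that all estradiol arrays lay below all genistein arrays. The other genes of this list were not called. In estradiol against genistein Cd8a (-0.12), Dntt (-0.22), Satb1 (-0.17) and Arpp21 (-0.11) were below 0. Rag1 (0.01), Rag2 (0.04), Cd4 (0.06) and Cd1d1 (0.11) were above 0. The part of the cell type markers in the Il2ra result was not tested.

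Il2ra is also carried by regulatory T cells, Kit by mast cells, and Il7r and Cd44 by mature T cells. The summed signal of 7 regulatory T cell genes was 615.3 to 880.3 in estradiol, 654.2 to 847.0 in genistein and 715.4 to 718.4 in controls, and their defining factor Foxp3 was too dim to be tested (32.3 to 45.9, 30.2 to 60.5, and 19.3 to 36.3). The sum of 8 mast cell genes was 287.7 to 380.4, 303.4 to 402.2 and 276.8 to 303.2, and that of 7 mature T cell genes 1041.0 to 1439.1, 1150.3 to 1565.1 and 1053.3 to 1206.5. In each of these 3 lists the estradiol and genistein ranges overlapped over most of their width, and limma called 0 genes in any comparison over the mean of days. In estradiol against control 2, 1 and 2 genes had an unadjusted p under 0.05, beside 14.8% of all probe sets. These were Il2rb (0.73) and Tnfrsf4 (-0.45), Cpa3 (0.55), and Itgb7 (0.96, limma, adjusted p = 0.0557) and Klf2 (0.38). All of these but Tnfrsf4 had all 6 estradiol arrays above both controls, beside 8.04% of all probe sets. They were picked by their p in the same comparison, so this order is no separate support. The part of these cells in the changes of Il2ra, Kit, Il7r and Cd44 was not tested. The sum of 10 B cell genes was 2713.3 to 3519.6, 2392.3 to 3470.6 and 2402.5 to 2613.3, all 6 estradiol sums lying above both controls. Of its 6 tested genes limma called 0 in estradiol against control over the mean of days. There 2 had an unadjusted p under 0.05, beside 14.8% of all probe sets. At day 6 limma called 1, the immunoglobulin joining chain Jchain (1.15, adjusted p = 0.0200), beside 0.656% of all. The sum of 3 red blood cell genes was 120.5 to 231.0, 121.6 to 225.5 and 183.7 to 200.8.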

How the data were processed

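Thymus RNA of 14 Affymetrix arrays was compared. The deposited values are signal intensity, made by the authors with MAS5 5.0 per the submitters' processing notes; 64 control probe sets were removed. The 2%-trimmed mean was 150.04 on 11 arrays and 223.4 to 334.64 on 3, for a reason not given in the sources used here, and all were multiplied to 150.04. A pseudocount of 16 was added, log2 taken, and the lowest 40% of probe sets by mean left out, blind to group, which left 13575 (8214 genes). The number of arrays limits the precision.

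limma 3.58.1 in R 4.3.3 fitted 7 group means (eBayes with trend, 7 residual degrees of freedom, 13.74 after moderation), with Benjamini-Hochberg adjustment within each of 15 comparisons. The procedure was tested on simulated data. Probe sets were named from the platform annotation (20393 with 1 symbol, 691 with several, 1606 with none; 20364 updated to current symbols) and are named alone where they carry 1 symbol. A gene is represented by its brightest probe set unless stated. Values are given for every probe set of the 10 genes, for genes of the pathway lists that were called, and where such a list had none for up to 2 with the smallest p; cell type markers are given as sums with the called genes named; the 3 most alike genes were taken for Il2ra, Ptcra and Notch1. Genes and lists were chosen with earlier results of these data known. Promoters are RefSeq's (GRCm38.p6). Alternatives are described with their effects in the closing section.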

Additional observations from a re-analysis of the deposited data

Results flagged for a closer look

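Il2ra differed between estradiol and genistein in its dimmer probe set, while its brighter one was not called (0.56, limma, adjusted p = 0.0943). For the dimmer one, estradiol exceeded genistein by 0.94 ± 0.120 SE on the log2 scale over the mean of days (limma, adjusted p = 0.00176). All 6 estradiol arrays lay above all 6 genistein arrays. The agent cannot be told apart here from daily injection in oil against feeding. With the deposited scale as a term in the model the difference was 1.01 and not called (limma, adjusted p = 0.0562). With the 3 high-scale arrays left out the difference was 0.94 and not called (adjusted p = 0.058).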

How the results depend on the processing

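Of 4424 changes of the probe sets recomputed under 27 other settings, 4333 kept their side of the threshold (4224 of them with the same sign), 17 were no longer called, 69 became called (49 of them with the values as deposited) and 5 reversed. The values as deposited, in which the 3 high-scale arrays are brighter throughout, called 14 of the 14 probe sets in estradiol against control over the mean of days and at day 3, in estradiol against genistein for the mean of days and at day 3, and over the days of estradiol, 9 in the interaction, and 1 in estradiol against control at day 2. They also turned the uncalled negative differences of estradiol against genistein to called positive ones for Hhex (0.35), Cd44 (0.38) and the dimmer probe set of Il7r (0.40) over the mean of days, and for Cd44 (0.90) and the brighter one of Il7r (0.94) at day 3. With the lowest 60% left out, neither probe set of Il2ra was tested, nor were those of Hes1, Hhex and Kit and the dimmer ones of Il7r and Notch3. Of the rest, 0 were called in estradiol against control over the mean of days and at days 3 and 6, and 0 in estradiol against genistein for the mean of days. At day 3 of estradiol against control, 0 were called with no filter, with the deposited scale as a term and with only the groups compared in the fit, which also gave 0 at day 6; at day 2, 1 was called with a pseudocount of 1 and with quantile normalization. The Gapdh ratio as a covariate gave 2 in estradiol against control over the mean of days, Il2ra's brighter probe set being the second (adjusted p = 0.0304). In estradiol against genistein for the mean of days 0 were called with the deposited scale as a term (the dimmer Il2ra probe set at 1.01, adjusted p = 0.0562) and without the 3 arrays, and at day 6, 1 was called with a pseudocount of 64. Without the 3 arrays, day 3 of estradiol and tests over its days could not be run. Leaving out each array in turn, the number called in estradiol against control was 0 to 2 over the mean of days and at days 2 and 3, and 0 to 3 at day 6; it was 0 to 1 in each of the 4 comparisons of genistein against control, 1 to 2 in estradiol against genistein for the mean of days and 0 to 1 at day 6. The call in genistein against control came without control replicate 1, for the dimmer Notch1 probe set. Leaving out the 2 arrays with the highest ratio of 3′ to 5′ Gapdh signal (estradiol day 2 replicate 1 at 1.266, genistein day 6 replicate 1 at 1.503), a setting chosen after seeing the data, changed no count of the 14 probe sets, but Hey1 and Il7 were then not called (adjusted p = 0.0704 and 0.123). Il7 was not called with the Gapdh ratio as a covariate either (0.0617).

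Replicate numbers did not pair the arrays: over 21 pairs of groups the correlation of replicate differences ran from -0.256 to 0.351, with 5 above 0.1. With a replicate block, the number of probe sets called was the same in all 15 comparisons (1 in estradiol against control over the mean of days), and Notch2, Hey1 and Il7 had adjusted p of 0.0526, 0.0549 and 0.0526.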
